A study of Mus musculus with 8 samples.

Results

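The mouse genes numbered from Zfp700 to Zfp999 encode zinc finger proteins. All protein-coding genes with such a symbol were taken, which gave 128 genes among the 56953 identifiers of the count table. Of these, 99 had a mean of at least 0.5 CPM (counts scaled to a common library total) over the 8 libraries and are described. The other 29 lay below this limit, and 4 of them, Zfp708, Zfp735, Zfp872 and Zfp879, had no count in any library. The genes just above the limit were Zfp704 at a mean of 0.612 CPM and Zfp981 at 0.631 CPM, and those just below it were Zfp973 at 0.443 CPM and Zfp969 at 0.421 CPM.

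A C2H2 zinc finger is a short fold held together by a zinc ion, and a row of such fingers can bind a particular DNA sequence. Most proteins of this family in mammals also carry a KRAB domain, which recruits the corepressor TRIM28 (also known as KAP1), and through it a histone methyltransferase and heterochromatin proteins. Many of them silence retrotransposons, and their genes lie in clusters that arose by duplication, so that neighbours often resemble each other closely.

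CT26, a mouse colorectal carcinoma cell line, was studied in 4 groups of 2 libraries each. The tumour groups were transplanted CT26 tumours whose hosts received normal saline or mLJZD, a drug whose abbreviation the labels leave unexpanded. In the culture groups, CT26 cells were kept for 48 hours in medium with 10% control serum or with 10% serum containing mLJZD. The labels give neither the age, strain or sex of any host nor the animals that supplied the serum, and whether paired libraries are separate animals or separate dishes is not given there either. The p-values therefore cover library-to-library spread alone, part of which may be technical.

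Library totals ran from 16594912 to 29363861 counts. Tumours also hold host cells. In bulk tissue, fewer cells of a type and less RNA per cell cannot be told apart. Summed over 5 skeletal muscle markers, saline tumours had 1916 and 1937 CPM and mLJZD tumours between 303 and 314 CPM, while 5 B and plasma cell markers summed to between 6.65 and 8.23 CPM and between 57.2 and 61.5 CPM. In control cultures the muscle markers were all at 0 and the B and plasma cell markers summed to at most 0.512 CPM. Sums of 4 fibroblast markers lay between 1193 and 1199 CPM in saline tumours and between 1581 and 1630 CPM in mLJZD tumours. In cultures the sums lay between 284 and 406 CPM. Col1a1 made up most of them, with 350 and 381 CPM in control cultures. Mean levels of Col3a1 were 506 CPM in saline tumours and 20.0 CPM in control cultures, and those of Pdgfra 48.0 and 4.63 CPM. Dcn had a mean of 174 CPM in saline tumours and was nearly absent from control cultures. The part of host cells in the results on tumours was not tested. The labels name a colorectal cancer line, and 7 colon or epithelial markers summed to between 22.5 and 23.0 CPM in saline tumours, 7.05 and 7.86 CPM in mLJZD tumours, and 33.1 and 41.6 CPM in control cultures. Krt18 made up most of that sum in control cultures, with 39.0 and 30.9 CPM, and fell in tumours (log2 -2.95), as did Krt8 (log2 -3.11). Cdh1 went the other way, from 2.95 and 3.28 CPM in saline tumours to 4.75 and 3.98 CPM in mLJZD tumours. It was not called (log2 0.52, edgeR adjusted p = 0.0868). Epcam had means of 0.430 CPM in saline and 0.617 CPM in mLJZD tumours. Cdx2 was at 0 in every tumour library and Epcam in every culture library. The part of these changes in the results on tumours was not tested.

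Of the 99 described genes, 80 encoded a KRAB motif in their longest coding transcript, and the number of C2H2 finger motifs ranged from 0 to 23 with a median of 11. Genes with the KRAB motif had a median of 11 fingers, a transcript of 3020 bases (median) and 39.6% GC, against 6 fingers, 4143 bases and 51.0% GC for the 19 genes without it. The level was low as a rule. The median described gene stood at 9.11 CPM, or 3.15 CPM per kb of transcript, against 32.0 CPM and 8.92 CPM per kb for all 12693 protein-coding genes above the same limit.

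Per kb of transcript, Zfp706 was the highest at a mean of 52.0 CPM per kb, followed by Zfp740 at 35.6, Zfp869 at 19.3, Zfp771 at 17.1 and Zfp703 at 16.9 CPM per kb. Zfp706, which restrains the pluripotency factor Klf4 in mouse embryonic stem cells, had 1 finger motif and no KRAB motif, Zfp740 had 2 finger motifs and Zfp703 had none that matched. Zfp703 encodes a transcriptional corepressor whose human counterpart is amplified in luminal breast cancer. Of these 5 genes, Zfp869 alone had the KRAB motif. Among genes with a known role below the limit, Zfp711, tied in humans to X-linked intellectual disability, had 3 counts in saline and 6 in mLJZD tumours and none in cultures, and Zfp750, a regulator of epidermal differentiation, and Zfp819, a gene of mouse pluripotent cells, had 1 count each in a single mLJZD culture library.

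Treatment of the tumours moved few of these genes. Of 99 tested, 22 changed between mLJZD and saline tumours (22.2%) at an edgeR adjusted p under 0.05, against 31.4% of all 15417 genes tested. Of those, 5 rose, against 15.4% of all genes, and 17 fell, against 16% of all genes. The median log2 fold change was -0.07, and it was -0.01 over all protein-coding genes. The libraries of the groups did not overlap for 58 of the 99 genes, or 58.6%, against 64.5% of all genes. With 2 libraries a group an exact permutation test cannot go below p = 0.333, so each call rests on the model fitted across all genes.

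With DESeq2, 12 of the 99 genes were called in tumours (12.1%), 3 higher and 9 lower, against 21.3% of all genes. The count also depends on single libraries. Without mLJZD tumour replicate 1, only 2 of the 99 genes were called, both lower (6.75% of all genes), and without mLJZD tumour replicate 2, 6 were called, all lower (12.3% of all genes). Without saline replicate 1 or 2 there were 15 and 14 calls (22.1% of all genes in both cases). Of the 15 genes named below for their size, Zfp978 alone was still called without mLJZD replicate 1. These 15 were chosen among called genes whose tumour groups do not overlap, so that lack of overlap is no result.

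The deepest falls lay close together. A cluster on chromosome 4 that runs from Zfp990 to Zfp933 holds 16 of the 128 genes, 12 of them described, and includes 5 of the 6 genes that fell the most in tumours. All 12 carry the KRAB motif. Within the cluster 5 described genes fell, Zfp981, Zfp988, Zfp978, Zfp986 and Zfp982, while Zfp985 rose and the other 6 did not pass. Of these 5, Zfp981 passed the 0.5 CPM limit only through the saline tumours, so its fall is built into its choice.

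Zfp988 had 38 and 34 counts in saline tumours and 5 and 3 in mLJZD tumours, that is 1.93 and 1.72 CPM against 0.273 and 0.181 CPM. It stood at 2.69 and 2.97 CPM in control cultures and 2.2 and 3.71 CPM in mLJZD cultures. The tumour groups did not overlap, as its choice required, both mLJZD tumours lay below every culture, and the culture groups overlapped. The log2 fold change in tumours was -2.93 (SE 0.49, edgeR adjusted p = 0.000184), and in cultures 0.03 (SE 0.31, edgeR adjusted p = 0.951).

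Zfp978, the most abundant of the genes that fell in this cluster, had 6.65 and 5.66 CPM in saline tumours and 1.36 and 1.33 CPM in mLJZD tumours. Control cultures had 9.13 and 10.6 CPM and mLJZD cultures 10.2 and 8.11 CPM. The tumour groups were well apart and the culture groups overlapped. Its log2 fold change was -2.15 in tumours (SE 0.24, edgeR adjusted p = 2.85e-06) and -0.18 in cultures (SE 0.17, edgeR adjusted p = 0.412), and its call in tumours held without mLJZD replicate 1 (edgeR adjusted p = 0.0457).

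Zfp981 rested on few counts, 24 and 21 in saline tumours against 0 and 4 in mLJZD tumours. It changed by -3.21 on the log2 scale (SE 0.72, edgeR adjusted p = 0.00224), which became -2.19 without mLJZD replicate 1 (edgeR adjusted p = 0.0861) and -7.45 without mLJZD replicate 2, when a single library at 0 was left. It had 5 and 17 counts in control cultures and 15 and 24 in mLJZD cultures, where the groups overlapped. Zfp981 lay just above the 0.5 CPM limit, and the saline tumours, at 1.22 and 1.06 CPM, were its highest libraries. Its mean over the other libraries lies under that limit, so a fall from saline is built into its choice.

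Zfp986 and Zfp982 went opposite ways in the 2 materials. Zfp986 had 29 counts in each saline tumour and 4 and 8 in mLJZD tumours, and it had 9 and 10 counts in control cultures and 17 and 46 in mLJZD cultures. It fell in tumours by 2.04 on the log2 scale (SE 0.49, edgeR adjusted p = 0.00358) and rose in cultures (log2 1.48, SE 0.55, edgeR adjusted p = 0.0328). Zfp982, which promotes stem cell features in mouse embryonic stem cells, had 2.84 and 2.53 CPM in saline tumours, 1.20 and 1.45 CPM in mLJZD tumours, 2.18 and 3.29 CPM in control cultures and 9.20 and 7.42 CPM in mLJZD cultures. It fell in tumours (log2 -0.99, SE 0.31, edgeR adjusted p = 0.0198) and rose in cultures (log2 1.54, SE 0.24, edgeR adjusted p = 8.14e-05).

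Without mLJZD tumour replicate 1 the adjusted p in tumours became 0.0530 for Zfp988, 0.0970 for Zfp986 (log2 -1.57) and 0.144 for Zfp982. The tumour call of Zfp982 also ended without each of the other 3 libraries, with adjusted p-values from 0.0682 to 0.144 over the 4. The culture call of Zfp986 ended without control replicate 1 (edgeR adjusted p = 0.130) or 2 (0.0823) and without mLJZD replicate 2 (0.449, log2 0.94), and that of Zfp982 held without each library. With DESeq2 neither the culture call of Zfp986 (adjusted p = 0.0920) nor the tumour call of Zfp982 (0.117) passed, and with the replicate block the culture call of Zfp986 did not (0.0522). Over all alternatives the adjusted p ran from 0.0175 to 0.449 for Zfp986 in cultures and from 0.0101 to 0.144 for Zfp982 in tumours.

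Zfp985 went up in both materials. It had 15.3 and 15.4 CPM in saline tumours and 19.6 and 20.8 CPM in mLJZD tumours, and 27.8 CPM in each control culture and 35.2 and 39.4 CPM in mLJZD cultures. The groups did not overlap in cultures, nor in tumours, where the choice of named genes asked for that. The log2 fold change was 0.43 in tumours (SE 0.11, edgeR adjusted p = 0.00481, and 0.0703 without mLJZD replicate 1) and 0.37 in cultures (SE 0.10, edgeR adjusted p = 0.00662).

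Among 66 other genes and pseudogenes annotated between the ends of the cluster, 11 were tested in tumours, 2 fell and none rose. Rex2, which lies within the cluster, had 24 and 21 counts in saline tumours and 0 and 2 in mLJZD tumours (log2 -4.13, edgeR adjusted p = 0.000495), and 15 and 12 in control cultures and 36 and 63 in mLJZD cultures (log2 1.66, edgeR adjusted p = 0.00526). Gm13212 had 65 and 52 counts in saline and 19 and 27 in mLJZD tumours (log2 -1.13, edgeR adjusted p = 0.0110). Rex2 and Gm13212 were picked here after their values were seen. Leaving out the cluster was an alternative chosen after seeing the data. Of the 99 described genes without the 12 of the cluster, 4 rose in tumours and 12 fell. Over all genes 15.4% rose and 16% fell.

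**Figure D1:**
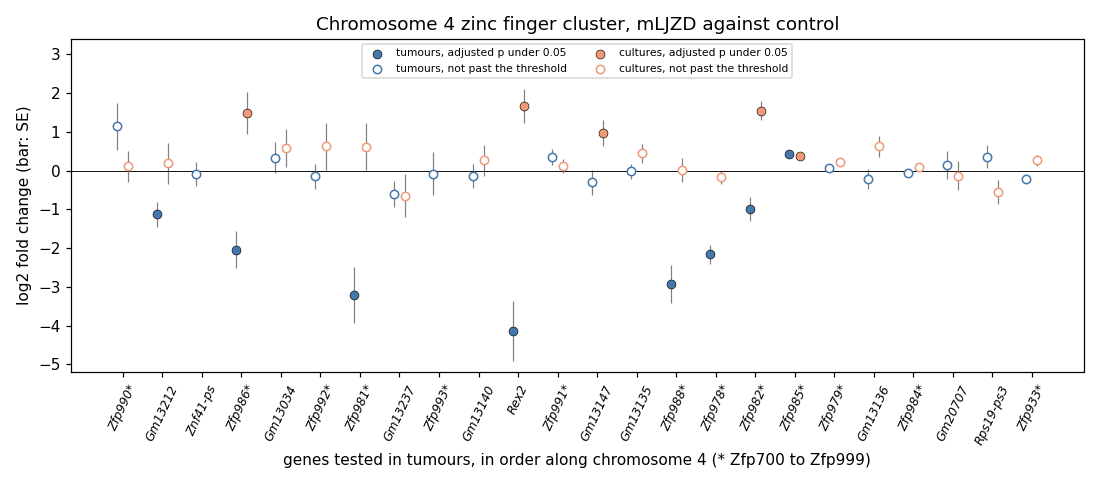
The y axis gives the log2 fold change of mLJZD against control with its SE for each gene of the chromosome 4 cluster that was tested in tumours, in gene order along the x axis. Filled points passed an adjusted p of 0.05. Zfp986, Zfp981, Zfp988, Zfp978 and Zfp982 lie between -3.21 and -0.99 in tumours (blue), and the culture values (orange) of the same genes lie between -0.18 and 1.54.

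Reads of these neighbours can be hard to tell apart. The first 488 coding bases of Zfp986 and Zfp988 are the same letter for letter in the GENCODE M21 transcripts. The first 90 of them are shown because they hold the start of the KRAB domain, and the capitals mark the codons for its opening residues, phenylalanine, lysine, aspartate and valine. Zfp987, another member of the cluster, has the same 90 bases.
Zfp986 and Zfp988: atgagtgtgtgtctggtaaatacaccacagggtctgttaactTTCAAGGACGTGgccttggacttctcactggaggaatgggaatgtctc

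Sharing was counted over all 75-base stretches in the longest transcript of each gene. Zfp986 shares 77.4% with genes elsewhere in the annotation, Zfp978 63.4%, Zfp988 59.7%, Zfp981 22.9%, Zfp985 4.72% and Zfp982 4.67%. The sources used here do not say how reads that map to several places were counted. Values of the first 4 of these genes are uncertain for that reason, while Zfp982, which fell, and Zfp985, which rose, have mostly sequence of their own. Of the 99 described genes, 30 share at least 5% of their stretches. Among the other 69, 5 rose (7.25%) and 9 fell (13.0%) in tumours, against 15.4% and 16% of all genes.

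The promoters of the cluster resemble each other too. Promoter sequences from RefSeq on GRCm38.p6, 300 bases with 250 before and 50 after the transcription start, were found for 109 of the 128 genes. They are the reference strain's letters, not those of CT26. The 3 shown here belong to a gene that fell in tumours and was not called in cultures, one that fell in tumours and rose in cultures, and one that rose in both. Capitals mark the motif GGGCGG, known as a GC box, and the motif CCAAT on either strand. In all 3 promoters a CCAAT box on the opposite strand and a GC box overlap by 2 bases and form the 1 run of capitals.
Zfp988, chr4:147305354-147305653, plus strand, GRCm38.p6: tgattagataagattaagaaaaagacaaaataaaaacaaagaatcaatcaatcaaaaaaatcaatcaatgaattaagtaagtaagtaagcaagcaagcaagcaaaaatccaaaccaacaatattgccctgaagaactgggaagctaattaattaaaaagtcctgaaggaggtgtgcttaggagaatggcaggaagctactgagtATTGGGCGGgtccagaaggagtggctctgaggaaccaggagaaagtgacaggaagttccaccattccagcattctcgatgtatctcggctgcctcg
Zfp982, chr4:147492167-147492466, plus strand, GRCm38.p6: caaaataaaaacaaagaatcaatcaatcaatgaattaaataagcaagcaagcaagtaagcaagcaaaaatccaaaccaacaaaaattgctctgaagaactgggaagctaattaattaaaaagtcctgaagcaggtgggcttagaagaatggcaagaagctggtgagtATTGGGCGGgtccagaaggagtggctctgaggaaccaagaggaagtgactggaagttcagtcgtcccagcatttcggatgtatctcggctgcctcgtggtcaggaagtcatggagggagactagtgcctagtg
Zfp985, chr4:147553027-147553326, plus strand, GRCm38.p6: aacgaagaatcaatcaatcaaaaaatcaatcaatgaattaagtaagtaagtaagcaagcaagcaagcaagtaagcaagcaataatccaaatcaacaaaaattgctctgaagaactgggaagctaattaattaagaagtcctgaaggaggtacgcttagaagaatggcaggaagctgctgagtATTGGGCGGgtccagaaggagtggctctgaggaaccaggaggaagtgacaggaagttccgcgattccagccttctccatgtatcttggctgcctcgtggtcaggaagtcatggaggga

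In a global alignment the promoters of Zfp982 and Zfp985 were identical at 85% of 300 positions, those of Zfp988 and Zfp985 at 80.7% and those of Zfp988 and Zfp982 at 79.7%. Over all promoters in the table, 35.7% of 32851 hold GGGCGG and 37.4% hold CCAAT, against 40.4% and 67.0% of the 109 zinc finger promoters. CCGGAA, the core of ETS factor sites, was in 14.9% of all promoters and in 33.0% of the 109, while TATAAA, a common core promoter element, was in 13.6% and 2.75%. All were searched on both strands. The 2 sets are not alike, as each of the 109 genes kept only the promoter nearest its annotated start, while all 32851 were counted. Some of the 109 are near copies, such as Zfp979 and Zfp980 at 91% identity, so a shared motif counts more than once. A match is a run of letters and not a bound site.

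Outside the cluster, Zfp940 had the largest fall in tumours, with 2.64 and 1.67 CPM in saline and 0.327 and 1.33 CPM in mLJZD tumours. Its groups barely parted, and mLJZD replicate 1 carried most of the difference. The log2 fold change was -1.38 (SE 0.46, edgeR adjusted p = 0.0311), and -0.68 (edgeR adjusted p = 0.383) without that library. The call also ended without mLJZD replicate 2 and without saline replicate 1.

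Of the other falls, Zfp738 went from 23.5 and 24.1 CPM to 14.8 and 16 CPM (log2 -0.59, SE 0.10, edgeR adjusted p = 0.000261). Zfp870 went from 6.09 and 6.06 CPM to 3.44 and 4.10 CPM (log2 -0.66, SE 0.19, edgeR adjusted p = 0.0144), Zfp775 from 4.98 and 5.10 to 3.66 and 2.89 CPM (log2 -0.58, SE 0.21, edgeR adjusted p = 0.0457), and Zfp953 from 7.57 and 5.76 to 4.86 and 3.98 CPM (log2 -0.55, SE 0.20, edgeR adjusted p = 0.0405). Within these 4 genes the groups did not overlap, as the choice of genes named for their size required. Zfp738 lost its call without mLJZD replicate 1, Zfp953 without either mLJZD library or saline replicate 1, and Zfp870 and Zfp775 without any one of the 4 libraries.

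Zfp706 had 241 and 226 CPM in saline tumours and 170 and 161 CPM in mLJZD tumours (log2 -0.46, SE 0.06, edgeR adjusted p = 6.82e-06), a call that held without each library. Zfp746, known as PARIS, a substrate of parkin that represses the metabolic coactivator PGC-1alpha, had 41.1 and 39.0 CPM against 30.2 and 31.2 CPM (log2 -0.35, SE 0.07, edgeR adjusted p = 0.00127, and not called without mLJZD replicate 1 or 2). In the cultures Zfp746 stood at 39.2 and 46.5 CPM with control serum and 44.0 and 46.3 CPM with mLJZD serum, where the groups overlapped.

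The rises in tumours were small. Zfp719, with the largest, had 23.9 and 22.8 CPM in saline and 29.3 and 32.4 CPM in mLJZD tumours (log2 0.43, SE 0.09, edgeR adjusted p = 0.00121). Zfp703 had 37.3 and 35.3 CPM against 44.7 and 41.5 CPM (log2 0.28, SE 0.07, edgeR adjusted p = 0.00592). Zfp948 (log2 0.26, SE 0.07) and Zfp827 (log2 0.25, SE 0.08), whose human counterpart recruits a chromatin remodelling complex to telomeres, also rose. All 5 calls, Zfp985 included, ended without mLJZD replicate 1 and without mLJZD replicate 2, those of Zfp703 and Zfp827 also without saline replicate 2, and that of Zfp948 without saline replicate 1.

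**Figure D2:**
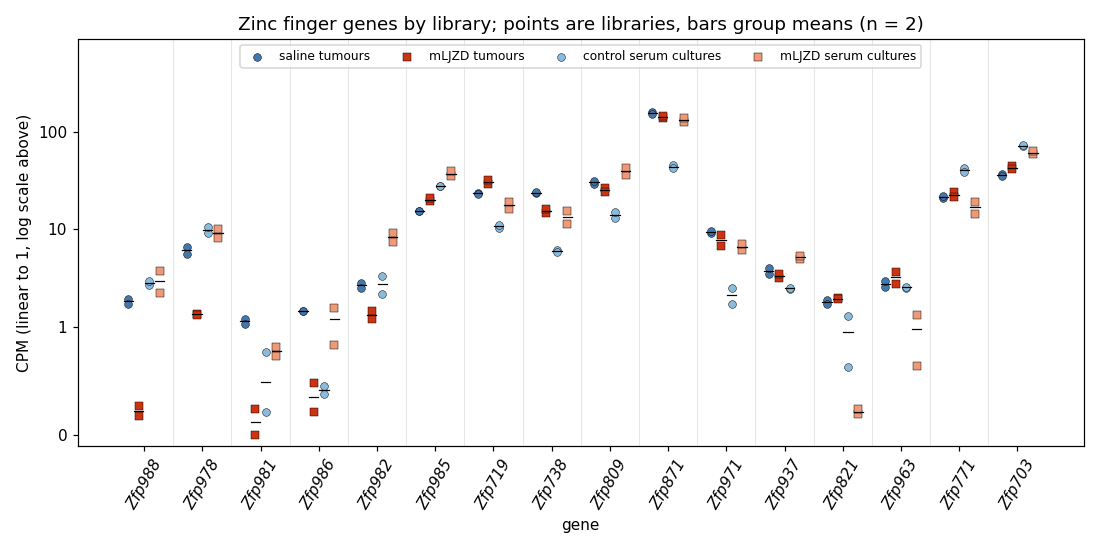
Each point is the CPM of 1 library (y axis, linear up to 1 and logarithmic above) for 16 named genes (x axis), with a bar at the mean of each group of 2. Zfp988 and Zfp978 drop below the other 3 groups in mLJZD tumours, while Zfp809 and Zfp971 are lowest in the control cultures.

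In cultures more of the genes moved. Of 96 tested, 41 changed between mLJZD serum and control serum (42.7%), against 55.4% of all 13299 genes tested. Of these, 30 rose, against 28.8% of all genes, and 11 fell, against 26.6% of all genes. The groups did not overlap for 65 of the 96 (67.7%), against 77.4% of all genes. The median log2 fold change was 0.28, and 0.00 over all protein-coding genes. With upper-quartile scaling, which moves the median of all genes from -0.01 to -0.12, 23 rose and 14 fell. Of all genes 57% were then called. Without mLJZD replicate 1 the median was 0.39, against -0.02 over all genes, and without mLJZD replicate 2 it was 0.14, against -0.01.

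Culture fold changes followed transcript length across all genes. Their rank correlation with the length of the longest transcript was 0.67 over 11180 protein-coding genes, and 0.23 over the 96 zinc finger genes, which share their libraries. With GC content it was -0.39 and -0.31. The described genes had a median of 40.2% GC, against 49.7% for protein-coding genes above the CPM limit. After a smooth trend in length and GC content was taken out of each library, 31 genes were called, against 38.9% of all genes, of which 21 rose, against 25%, and 10 fell, against 13.9%. The median was then 0.17, and 0.07 over all protein-coding genes. The rank correlation with length became 0.03 over protein-coding genes but -0.28 over the zinc finger genes. At 6000 bases or more the median was then -0.12 for zinc finger genes and 0.13 for all coding genes. Trend-removed values of long zinc finger genes are uncertain for that reason. Of the 30 rises 18 were still called and 3 turned sign (Zfp738, Zfp748 and Zfp827), and of the 11 falls 8 were still called and 2 turned sign (Zfp703 and Zfp777).

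Against genes of like length, the shorter zinc finger transcripts stood high. Of 12 genes under 2000 bases, 10 lay above the median of all coding genes of that length, as did 24 of 32 from 2000 to under 3000 bases, 18 of 24 from 3000 to under 4000, 11 of 20 from 4000 to under 6000, and 2 of 8 at 6000 bases or more. For the class under 2000 bases the medians were -0.01 for the zinc finger genes and -0.54 for all coding genes.

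**Figure D3:**
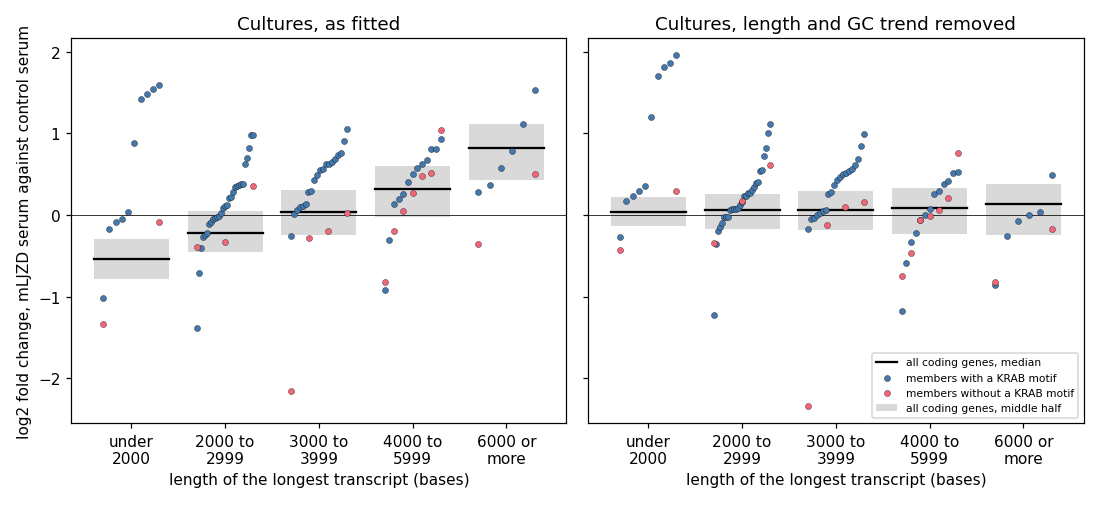
Culture log2 fold changes (y axis) are drawn by class of transcript length (x axis), as fitted on the left and with the length and GC trend removed on the right. Points are zinc finger genes, blue with and red without a KRAB motif, and grey boxes span the lower to the upper quartile of all coding genes, with a line at the median. On the left the median of all coding genes climbs from -0.54 under 2000 bases to 0.82 at 6000 bases or more, and the zinc finger genes climb less.

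Of 78 genes with the KRAB motif 26 rose in cultures (33.3%) and 4 fell (median log2 0.35), and of 18 without it 4 rose (22.2%) and 7 fell (median -0.14), where 28.8% of all genes rose and 26.6% fell. With the trend removed these became 19 and 4 (median 0.25), and 2 and 6 (median -0.04). No test of this split was made, and the groups differ in length and GC content as given above.

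Zfp809 recognises the primer binding site of murine leukaemia viruses and brings TRIM28 to silence them in embryonic cells. It had 13.2 and 15.2 CPM in control cultures and 36.3 and 43.0 CPM in mLJZD cultures, against 29.4 and 31.7 CPM in saline tumours and 26.8 and 24.2 CPM in mLJZD tumours. The culture groups were far apart and the control cultures were the lowest of all libraries. It rose in cultures (log2 1.43, SE 0.12, edgeR adjusted p = 3.89e-07, and 1.70 with the trend removed), and its value in tumours was -0.23 (SE 0.09, edgeR adjusted p = 0.0677).

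Zfp971 had the largest rise in cultures, from 1.71 and 2.52 CPM to 6.21 and 7.02 CPM (log2 1.59, SE 0.26, edgeR adjusted p = 0.000111, and 1.96 with the trend removed). It shares 20.2% of its stretches with genes elsewhere. Zfp871, whose transcript of 10851 bases is among the longest of the set, rose from 45.5 and 42.7 CPM to 127 and 140 CPM (log2 1.54, SE 0.09, edgeR adjusted p = 8.54e-09). With the trend removed this value fell to 0.49 (edgeR adjusted p = 0.000271), so its size depends on that correction.

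Zfp738, with 13215 bases, went from 6.15 and 5.81 CPM to 11.3 and 15.4 CPM in cultures (log2 1.11, SE 0.18, edgeR adjusted p = 0.000133), but stood at -0.07 (edgeR adjusted p = 0.764) with the trend removed. At this length the trend-removed value is uncertain, as given above. Zfp800, whose human counterpart holds back enteroendocrine genes in the gut, rose from 17.5 and 19.9 CPM to 38.2 and 41.6 CPM (log2 1.04, SE 0.11, edgeR adjusted p = 2.37e-06, and 0.76 with the trend removed). In both genes the culture groups did not overlap, which the choice of genes named for their size required.

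Lower down, Zfp937 rose from 2.48 and 2.52 CPM to 4.99 and 5.31 CPM (log2 0.99, SE 0.25), Zfp873 from 1.32 and 1.62 CPM to 2.69 and 3.34 CPM (log2 0.98, SE 0.34), and Zfp882 from 1.41 and 1.04 CPM to 1.96 and 3.27 CPM (log2 1.05, SE 0.39). Their edgeR adjusted p-values were 0.00358, 0.0230 and 0.0339. Zfp937 held without each library. Zfp873 was not called without control replicate 1 or mLJZD replicate 2, nor was Zfp882 without control replicate 2 or mLJZD replicate 2. Zfp882 was also not called with the trend removed (log2 1.00, edgeR adjusted p = 0.0554) or with upper-quartile scaling (0.0517), and neither Zfp882 nor Zfp873 was called by DESeq2 (adjusted p = 0.0690 and 0.0516). Over all alternatives the adjusted p ran from 0.00775 to 0.394 for Zfp882 and from 0.00778 to 0.168 for Zfp873.

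The falls in cultures began with Zfp821, which had 30 and 14 counts in control cultures and 4 and 7 in mLJZD cultures, or 1.28 and 0.631 CPM against 0.196 and 0.238 CPM. Its tumour libraries lay between 1.72 and 1.96 CPM in both groups. The culture fall was -2.16 on the log2 scale (SE 0.64, edgeR adjusted p = 0.0106), and it was not called without control replicate 1 (edgeR adjusted p = 0.224), without mLJZD replicate 1 (0.0840) or without mLJZD replicate 2 (0.0711).

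Zfp963 had 2.52 and 2.57 CPM in control cultures and 0.636 and 1.33 CPM in mLJZD cultures (log2 -1.38, SE 0.41, edgeR adjusted p = 0.0102, and 0.0835 without mLJZD replicate 1). Zfp771 had 42.4 and 38.7 CPM against 19.3 and 14.4 CPM (log2 -1.34, SE 0.13, edgeR adjusted p = 1.35e-06). The fall of Zfp771, whose transcript has 1484 bases, shrank to -0.43 with the trend removed (edgeR adjusted p = 0.00754). Zfp775 (log2 -0.82, SE 0.25) and Zfp707 (log2 -0.71, SE 0.13) came next.

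The remaining falls were smaller. Zfp954 (log2 -0.40), Zfp787 (-0.39), Zfp865 (-0.35), Zfp703 (-0.28), Zfp777 (-0.26) and Zfp706 (-0.19) were lower with mLJZD serum. With the trend removed Zfp865 stood at -0.82 (edgeR adjusted p = 9.6e-06), Zfp703 at 0.10 (0.352), Zfp777 at 0.06 (0.602) and Zfp954 at -0.09 (0.657). Zfp954 lost its call under 9 of 13 alternatives. Zfp775 ended without control replicate 1 or mLJZD replicate 2, Zfp954 and Zfp706 ended without any one of the 4 libraries, and Zfp777 without control replicate 2 or either mLJZD library.

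The promoters of the gene with a large rise and little shared sequence, Zfp809, and of the gene with the largest fall, Zfp821, are shown for contrast. Capitals again mark GGGCGG and CCAAT on either strand.
Zfp809, chr9:22225462-22225761, plus strand, GRCm38.p6: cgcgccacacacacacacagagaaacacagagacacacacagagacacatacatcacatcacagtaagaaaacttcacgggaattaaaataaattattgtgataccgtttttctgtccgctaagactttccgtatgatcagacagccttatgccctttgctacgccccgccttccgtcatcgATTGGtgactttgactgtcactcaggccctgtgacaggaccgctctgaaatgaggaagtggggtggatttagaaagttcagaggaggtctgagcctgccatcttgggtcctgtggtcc
Zfp821, chr8:109705296-109705595, plus strand, GRCm38.p6: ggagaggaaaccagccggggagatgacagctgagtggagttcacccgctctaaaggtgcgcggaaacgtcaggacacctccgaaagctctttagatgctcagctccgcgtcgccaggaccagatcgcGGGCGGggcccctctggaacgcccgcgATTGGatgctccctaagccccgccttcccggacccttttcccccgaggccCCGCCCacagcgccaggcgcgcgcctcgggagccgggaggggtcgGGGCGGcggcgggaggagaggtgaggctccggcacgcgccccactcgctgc
The promoter of Zfp821 has 70.3% GC, 33 CpG and 3 GC boxes, and that of Zfp809 has 48.7% GC, 11 CpG and none. They are identical at 42.7% of aligned positions. The median over the 109 promoters was 51.7% GC and 9 CpG, and over all promoters 52.7% GC and 7 CpG.

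Zfp932, Zfp768 and Zfp830 have known roles and did not pass in either treatment. Zfp932, which represses endogenous retroviruses in mouse embryonic stem cells, ranged from 10.6 to 14.6 CPM over all 8 libraries, with log2 fold changes of -0.26 in tumours (SE 0.13) and -0.24 in cultures (SE 0.14). It shares 32.6% of its stretches with genes elsewhere. Zfp768, whose human counterpart acts downstream of RAS signalling, had 0.10 in tumours (SE 0.12) and -0.33 in cultures (SE 0.14, edgeR adjusted p = 0.0522), and Zfp830, a nuclear protein needed in the early mouse embryo, had 0.13 (SE 0.13) and -0.09 (SE 0.17).

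The 2 treatments were set side by side for the 96 genes tested in both. Both materials called 12 genes (12.5%), against 21.1% of the 12694 genes tested in both. Zfp738, Zfp763, Zfp953, Zfp982 and Zfp986 fell in tumours and rose in cultures, and Zfp703 rose in tumours and fell in cultures. Zfp719, Zfp827 and Zfp985 rose in both, and Zfp706, Zfp775 and Zfp865 fell in both. With the length and GC trend removed, the culture values of Zfp827 (-0.17), Zfp738 (-0.07) and Zfp703 (0.10) had the other sign and were not called, the culture value of Zfp953 went from 0.80 to 0.41 (edgeR adjusted p = 0.259), and Zfp775 was not called in tumours (0.0580). Another 10 were called in tumours alone, 29 in cultures alone and 45 in neither.

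An interaction term, tumour effect minus culture effect, asked in 1 model of the 8 libraries whether the effects differ. Of the 99 genes 37 passed (37.4%), against 44.4% of all 16090 genes tested. The effect was higher in tumours for 9, against 23.8% of all genes, and lower in tumours for 28, against 20.5%. With the length and GC trend removed 33% of all genes passed. Of the zinc finger genes 9 were then higher, against 16.7% of all genes, and 24 lower, against 16.4%. The median difference was -0.28, against 0.07 over all genes, and without mLJZD tumour replicate 1 it was -0.28 against 0.04.

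The differences were largest in the genes already described, where the fall of Zfp981 in tumours is built into its choice. Zfp981 differed by -3.75 on the log2 scale (SE 1.06, edgeR adjusted p = 0.00794), Zfp986 by -3.44 (SE 0.73, 0.000938), Zfp988 by -2.87 (SE 0.59, 0.000724) and Zfp982 by -2.45 (SE 0.38, 5.37e-05). In the other direction stood Zfp821 at 2.39 (SE 0.66, 0.00678), Zfp963 at 1.71 (SE 0.46, 0.00561) and Zfp771 at 1.54 (SE 0.18, 2.43e-06). Zfp809 differed by -1.57 (SE 0.15, 4.05e-07) and Zfp871 by -1.57 (SE 0.10, 4.15e-09), the latter by -0.55 with the trend removed. The difference for Zfp981 was not called without mLJZD tumour replicate 1 (edgeR adjusted p = 0.0693), nor that for Zfp821 without control culture replicate 1 (0.0610).

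**Figure D4:**
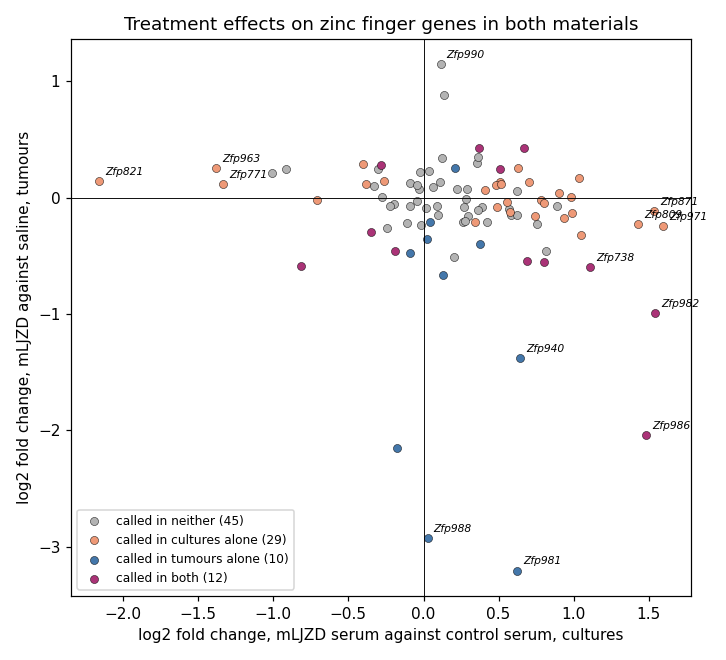
Each point is 1 of the 96 zinc finger genes tested in both materials, with the culture log2 fold change on the x axis and the tumour log2 fold change on the y axis. Colours show in which material a gene passed an adjusted p of 0.05, 12 in both, 10 in tumours alone, 29 in cultures alone and 45 in neither. Zfp982 and Zfp986 lie at the lower right, high in cultures and low in tumours.

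With saline or control serum in place of mLJZD, most of the genes stood higher in tumours than in cultures. Of the 99 genes 69 differed between saline tumours and control cultures (69.7%), against 80.6% of all 15332 genes tested. The libraries did not overlap for 84 genes, or 84.8%, against 89.5% of all genes. Of the called genes 52 were higher in tumours, against 44.9% of all genes, and 17 lower, against 35.7%. The median log2 difference was 0.49, and 0.15 over all protein-coding genes. With library totals in place of scaling factors, which moves the median of all genes from 0.15 to 0.31, 62 were higher and 14 lower. Of all genes 80.2% were then called. Growth as a tumour, the presence of host cells and the library preparation of each material cannot be told apart here.

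Zfp709 and Zfp704 were not counted in any culture library. Zfp709 had 36 and 39 counts in saline tumours and 22 and 35 in mLJZD tumours, and Zfp704, a glucocorticoid-inducible gene, had 29 and 32 counts and 11 and 20. Taking 3 counts over a group as the floor, saline tumours were at least 28.9-fold higher than control cultures for Zfp709 and at least 23.5-fold higher for Zfp704. Counts of 0 in cultures allow up to 0.0658 CPM in the control group. Both genes passed the 0.5 CPM limit through the tumour libraries alone, so a difference of this direction is built into their choice. Between the tumour groups Zfp709 overlapped (log2 -0.18, edgeR adjusted p = 0.740). Zfp704 did not overlap and did not pass (log2 -0.76, SE 0.41, edgeR adjusted p = 0.18), with values from -1.30 to -0.34 over the alternatives.

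Zfp773 had 6.55 and 5.20 CPM in saline tumours and 0.128 and 0.405 CPM in control cultures (log2 4.29, SE 0.40, edgeR adjusted p = 2.23e-06). Both control cultures lie under the 0.5 CPM limit, so a difference of this direction may be built into the choice of Zfp773. Zfp882 (log2 2.64, SE 0.23) and Zfp951 (log2 2.47, SE 0.32) were the next higher in tumours. Lower in tumours were Zfp990 (log2 -2.30, SE 0.52), Zfp941 (-2.01, SE 0.39), Zfp707 (-1.30, SE 0.12), Zfp703 (-1.15, SE 0.06) and Zfp771 (-1.08, SE 0.09). Zfp771 moved to -0.08 (edgeR adjusted p = 0.382) with the length and GC trend removed, and Zfp990 was not called without control culture replicate 2 or saline replicate 2.

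**Figure D5:**
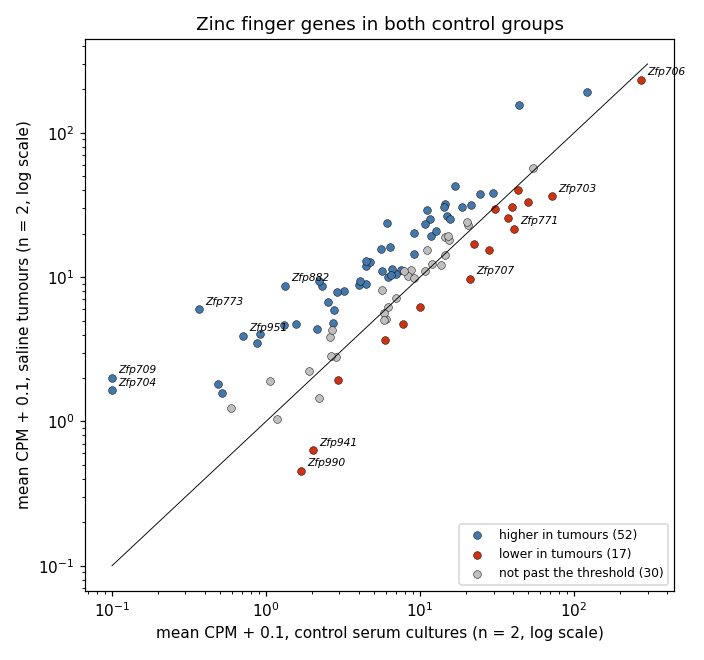
Mean CPM + 0.1 of the 99 described genes in control cultures (x axis) and saline tumours (y axis) is drawn on log scales, with a line of equal values. Of these genes 52 were higher and 17 lower in tumours, and Zfp709 and Zfp704 sit at the left edge with no count in cultures.

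Genes of the same family and of the silencing machinery were read from the same fits. As given above, 15.4% of all genes rose and 16% fell in tumours, and 28.8% rose and 26.6% fell in cultures. Of 200 other zinc finger genes with lower numbers 13 rose and 25 fell in tumours (median log2 -0.04), and of 193 tested in cultures 87 rose and 23 fell (median 0.36), or 49 and 19 with the trend removed (median 0.18). Of 17 Zscan and Zkscan genes, relatives with a SCAN domain in place of or beside KRAB, 1 rose and 1 fell in tumours, and 8 rose and 1 fell in cultures, or 3 and 1 with the trend removed.

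Among 16 genes of the TRIM28 pathway and heterochromatin, 9 fell and 2 rose in tumours (median log2 -0.16), against the 16% and 15.4% of all genes. Cbx5, a heterochromatin protein, fell by 0.49 on the log2 scale (SE 0.05), Uhrf1, which guides maintenance methylation, by 0.41 (SE 0.05) and the maintenance methyltransferase Dnmt1 by 0.36 (SE 0.05), while Daxx, a histone chaperone, rose (log2 0.30, SE 0.07). In cultures 11 rose and 1 fell (median 0.48), against 28.8% and 26.6% of all genes, led by Atrx (log2 1.60, SE 0.08) and Cbx5 (0.96, SE 0.07), which stood at 0.59 and 0.07 with the trend removed. With the trend removed 9 rose and none fell.

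Trim28 itself, picked here after its values were seen, had mean levels of 389 CPM in saline and 319 CPM in mLJZD tumours (log2 -0.25, SE 0.05) and 543 and 480 CPM in cultures (log2 -0.23, SE 0.08). The culture value moved to 0.09 with the trend removed (edgeR adjusted p = 0.313). Of the 4 genes of the HUSH complex and its partners, which silence retrotransposons, 1 fell in tumours, Pphln1 (log2 -0.40, SE 0.05), and all 4 rose in cultures, where 28.8% of all genes rose, with Fam208a (Tasor) at 1.46 (SE 0.13). With the trend removed 3 of the 4 rose, Fam208a stood at 0.65 and Morc2a did not pass (log2 0.22, edgeR adjusted p = 0.0715).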

How the data were processed

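RNA sequencing counts of 8 libraries in 4 groups of 2 were used. Raw counts per gene were deposited by the authors in 1 table. Per the submitters' processing notes, Trim Galore, FastQC 0.12.1, HISAT2 2.2.1, SAMtools 1.14, featureCounts 2.0.3 and GRCm39 were used. How strand and multiply mapped reads were treated is not given in the sources at hand. Per the labels' protocols, CT26 cells were grown in RPMI-1640 medium.

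Library totals ran from 16594912 to 29363861 counts and limit the precision of low genes. Gene names, transcript length, GC and motifs came from GENCODE M21 (GRCm38), so no gene coordinates of the authors' build are printed. The genes and lists were chosen with earlier results of these data known. CPM used library totals. edgeR 4.0.16 in R 4.3.3 gave two-sided quasi-likelihood F tests with TMM scaling, filterByExpr and p-values adjusted by Benjamini-Hochberg across the tested genes (threshold 0.05), on 4 libraries a comparison and 8 for the interaction. An SE is the absolute log2 fold change over the root of F. The length and GC trend was removed with natural splines of 6 degrees of freedom per library. A C2H2 finger and the KRAB A box were found as amino acid patterns in the translated longest coding transcript. Clusters joined genes less than 500 kb apart, and shared sequence was counted in 75-base stretches of the longest transcript. The steps were tested on simulated data.

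Genes named were up to 10 per direction by fold change in each treatment and up to 5 in the control contrast. These were taken among called genes whose groups do not overlap. Up to 5 per direction were named in the interaction, where overlap was allowed. The 5 highest per kb, those at the limit and genes of known role were also named. Alternatives were DESeq2 1.42.0, other scalings, no filter, a limit of 1 CPM, 1 fit of all libraries, the trend removed, a replicate block and leaving out each library.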

Additional observations from a re-analysis of the deposited data

Results flagged for a closer look

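The following genes had an effect of mLJZD that differed between tumours and cultures by the interaction test over 8 libraries (edgeR, Benjamini-Hochberg over all 16090 genes tested). Differences are tumour minus culture on the log2 scale, and no cause was tested. The effect was more negative in tumours for Zfp981 by -3.75 (adjusted p = 0.00794), Zfp986 by -3.44 (0.000938), Zfp988 by -2.87 (0.000724), Zfp982 by -2.45 (5.37e-05) and Zfp940 by -1.93 (0.0205). It was more positive in tumours for Zfp821 by 2.39 (0.00678), Zfp963 by 1.71 (0.00561), Zfp771 by 1.54 (2.43e-06), Zfp954 by 0.78 (0.00287) and Zfp707 by 0.77 (0.00241). The call of Zfp940 ended without control culture replicate 1, mLJZD tumour replicate 1 or saline replicate 1, that of Zfp981 without mLJZD tumour replicate 1 and that of Zfp821 without control culture replicate 1. Zfp954 and Zfp707 were not called with the length and GC trend removed, at adjusted p-values of 0.0541 and 0.0629. Zfp981, Zfp986 and Zfp988 share 22.9%, 77.4% and 59.7% of their 75-base stretches with genes elsewhere. The fall of Zfp981 from saline tumours is built into its choice, as stated above.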

How the results depend on the processing

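The tumour count was the least stable. DESeq2 called 12 genes in tumours (3 higher and 9 lower) against 22 with edgeR, where it called 21.3% and edgeR 31.4% of all genes. All 8 libraries in one fit and no filter on low counts each left 3 higher, for which no share of all genes is given. Genes sharing at least 5% of their stretches were left out in an alternative chosen after seeing the data. Of the 69 genes kept, 14 were called (20.3%) and 9 fell (13.0%), against 31.4% and 16% of all genes. Of the 30 genes left out, 8 fell (26.7%) and 0 rose. The median in tumours was -0.10 with library totals only. Leaving out each library in turn gave 2 to 15 calls in tumours, 0 to 4 higher and 2 to 11 lower, 6 to 9 falls and a median of 0.14 to 0.39 in cultures, and 18 to 29 interaction calls lower in tumours. The cause was not tested.

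The replicate numbers did not pair the libraries, with correlations of deviations of -0.11 in tumours, 0.02 in cultures and -0.0028 in the control contrast. With the replicate block 20 genes were called in tumours (5 higher, 15 lower), 40 in cultures (28 higher, 12 lower), 68 in the control contrast and 34 in the interaction, and 35 in cultures with the trend removed. Crossed numbers in tumours, added after seeing the data, gave 24 calls. Shares of all genes under these fits are not given, so these counts are not set against them.

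Over the named genes 797 alternatives kept direction and side of the threshold, 109 lost the call, 10 gained it and 20 changed sign. With the trend removed, without and with the block, culture values changed sign for Zfp703 (0.101 and 0.0972), Zfp738 (-0.0745 and -0.0858), Zfp768 (0.171 and 0.153), Zfp777 (0.0601 and 0.0581), Zfp827 (-0.172 and -0.175) and Zfp830 (0.294 and 0.298). Zfp746 in cultures turned to -0.0577 in the joint fit of all groups and -0.0924 with upper-quartile scaling. Leaving out each library gave -0.0835 to 0.135 for Zfp746 and -0.188 to 0.0304 for Zfp830 in cultures, and in tumours -0.0644 to 0.254 for Zfp768 and -0.0291 to 0.302 for Zfp830. With 2 libraries a group, low counts limit what can be called.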
